A study of Mus musculus with 15 samples.

Results

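Solute carriers are membrane proteins that move small molecules across the plasma membrane or the membranes of organelles. The genes described here are those listed in the wild-type or E-OEX tables whose symbol has the form Slc, family number, letter and number. There were 153 such genes, 1 of them the pseudogene Slc22a13b-ps, among 8384 genes in those tables, and they belonged to 41 Slc families. The largest families were the mitochondrial carriers (Slc25, 14 genes), the organic ion transporters (Slc22, 10 genes), the facilitative glucose transporters (Slc2, 8 genes) and the monocarboxylate transporters (Slc16, 8 genes). Of the 153 genes, 135 were listed for wild-type mice, 87 for E-OEX mice, 69 for both of these and 150 for U-OEx mice.

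RNA was sequenced from mouse uterine epithelium on day 4, in 5 groups of 3 libraries. The wild-type groups were Ctrl-LE, from the luminal epithelium (LE) facing the cavity of the uterus, and Ctrl-GE, from the epithelium of the glands (GE). E-OEX-LE, E-OEX-GE and U-OEx-LE came from mice labelled as overexpressing Notch1, the receptor of a cell-contact signalling pathway. What E-OEX and U-OEx stand for, the promoter or Cre line behind each, the strain, the age and the number of animals per library are not given in the sources used here. P-values therefore measure the spread between these libraries, which may be technical in part.

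Carriers that use the sodium, proton or chloride gradient load cells with sugars, amino acids, phosphate, carboxylates and vitamins, while exchangers and exporters set intracellular pH, calcium, iron and zinc. In the uterus, epithelial carriers and ion pumps set the volume and composition of the luminal fluid in which the embryo develops before attachment, and gland cells secrete into it. Many carriers need a partner, such as a heavy chain for the amino acid exchangers or the Na,K-ATPase that maintains the sodium gradient.

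Values are read counts scaled per library, rescaled together within LE and within GE so that groups of the same epithelium share a scale. The listed genes held 3818041 to 4797424 reads in the wild-type libraries, from 1980800 to 3494859 in the E-OEX libraries and from 13541644 to 14981505 in the U-OEx libraries, and the first 2 ranges are sums over selected lists, not depths. Genes entered the wild-type and E-OEX tables through a difference between GE and LE, so that difference is described without a test. Notch1, the overexpressed gene, was listed only in U-OEx-LE (deposited values 2913, 3524 and 2789), so the labels could not be checked on it. On scales set separately in each epithelium, 9 luminal markers summed to 72358 to 89894 in Ctrl-LE and to 10197 to 14163 in Ctrl-GE, and 7 glandular markers to 53.3 to 92.8 and to 22743 to 32490.

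The upstream sequence of 3 members is shown as examples picked by hand, not by a rule. Slc34a2 and Slc7a11 rose, and Slc5a11 fell, in U-OEx-LE against Ctrl-LE, where 38 members rose and 46 fell. Slc13a5 was picked as well but gave no stretch to show. The letters are RefSeq sequence (GRCm38.p6) from the 250 bases before the transcription start, less any base in an annotated GENCODE M21 exon, and read 5′ to 3′. The RefSeq start used for Slc34a2 lies inside the GENCODE span of the gene, downstream of its first annotated start. Capitals mark TGGGAA, the core letters of the site bound by RBPJ, the DNA-binding partner of Notch, searched on both strands.
Slc34a2, chr5:53049189-53049351, plus strand: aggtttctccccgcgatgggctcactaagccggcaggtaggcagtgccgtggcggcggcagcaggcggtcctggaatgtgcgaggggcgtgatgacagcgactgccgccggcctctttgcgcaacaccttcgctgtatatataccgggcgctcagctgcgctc
Slc7a11, chr3:50443615-50443863, minus strand: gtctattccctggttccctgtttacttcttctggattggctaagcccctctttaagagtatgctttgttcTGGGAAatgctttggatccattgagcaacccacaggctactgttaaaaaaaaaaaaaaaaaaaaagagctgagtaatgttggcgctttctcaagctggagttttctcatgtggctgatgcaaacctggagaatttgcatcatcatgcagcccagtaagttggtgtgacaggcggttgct
Slc5a11, chr7:123214616-123214779, plus strand: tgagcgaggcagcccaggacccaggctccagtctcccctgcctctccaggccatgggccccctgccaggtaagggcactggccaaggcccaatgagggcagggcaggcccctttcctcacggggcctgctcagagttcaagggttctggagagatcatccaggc
A RefSeq window was found for 111 of the 153 members. TGGGAA or its complement was in the 250 bases before a start for 22 of them (19.8%), against 24.1% of all 27025 genes with a window. The E-box CACGTG, a palindrome, was in 14 members (12.6%) and in 6.86% of all genes. Of the members with a window that rose in U-OEx-LE against Ctrl-LE, 4 of 27 held TGGGAA, and of those that fell, 6 of 30 did.

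The clearest change in E-OEX-LE against Ctrl-LE was in carriers of phosphate, iron, cystine, citrate and glutamate. Slc34a2, Slc40a1 and Slc7a11 rose, and Slc13a5 and Slc1a1 fell. Of the 69 members listed in both sets of tables, 61 passed the filter of a mean value of at least 1, and 11 of these (18%) passed an adjusted p of 0.05, 6 higher and 5 lower, by limma with Benjamini-Hochberg adjustment over all 2589 genes tested. Over all genes tested, 10.7% passed (5.18% higher and 5.56% lower). Members and other genes alike were listed in both genotypes through a difference between GE and LE, so both sets are selected. Members had a median log2 fold change of 0.16, and all genes tested one of -0.08. The 3 libraries of each group did not overlap for 22 members (36.1%), against 29.9% of all genes tested.

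Slc34a2 (ENSMUSG00000029188, chr5:53038081-53071664, GRCm38) encodes the sodium-phosphate cotransporter of apical membranes. Its rescaled read counts were 3.33, 3.71 and 3.45 in Ctrl-LE and 2729, 686 and 211 in E-OEX-LE. All 3 E-OEX-LE libraries were above all 3 Ctrl-LE libraries, although the E-OEX-LE libraries also differed widely among themselves. The Ctrl-LE values stand for only a few reads per library, so the size of the rise is uncertain. The fit gave a log2 change of 7.35 (standard error 0.85, adjusted p = 0.00157 by limma), on the scale of log2(value + 1) used for all fold changes here. A number in brackets after a gene's name is its log2 fold change in the comparison being described.

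Slc40a1 (ENSMUSG00000025993, chr1:45908068-45926523), the cellular iron exporter ferroportin, had rescaled counts of 186, 51.9 and 79.4 in Ctrl-LE and 1773, 3095 and 1711 in E-OEX-LE. The groups did not overlap, with a log2 change of 4.51 (standard error 0.55, adjusted p = 0.00168 by limma). Slc7a11 (ENSMUSG00000027737, chr3:49892526-50443614), the light chain of the cystine-glutamate exchanger that supplies cysteine for glutathione, was at 656, 142 and 337 in Ctrl-LE and at 4691, 8329 and 4234 in E-OEX-LE. It too was higher in every E-OEX-LE library, with a log2 change of 4.12 (standard error 0.58, adjusted p = 0.00415 by limma).

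The other members that rose were Slc27a3, of the fatty acid transport protein family (log2 fold change 2.35), Slc35g1 (2.24) and Slc23a4, of the family of ascorbate and nucleobase transporters (2.23). Each had 3 E-OEX-LE libraries above 3 Ctrl-LE libraries, with limma adjusted p-values of 0.0203, 0.0203 and 0.0353.

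Slc13a5 (ENSMUSG00000020805, chr11:72241989-72267222) imports citrate with sodium across the plasma membrane. It was at 3129, 1451 and 4175 in Ctrl-LE and at 14.7, 24.5 and 191 in E-OEX-LE, so that the highest E-OEX-LE library stayed below the lowest Ctrl-LE library. The fit gave a log2 change of -5.97 (standard error 0.86, adjusted p = 0.00430 by limma). Slc1a1 (ENSMUSG00000024935, chr19:28835049-28913960), a sodium-dependent carrier of glutamate, aspartate and cysteine, fell from 7525, 11667 and 10314 to 1445, 1213 and 2019.7, with a log2 change of -2.67 (standard error 0.41, adjusted p = 0.00512 by limma).

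Slc22a23, Slc39a14 and Slc5a3 fell less, with log2 fold changes of -1.76, -1.73 and -1.68 and limma adjusted p-values of 0.0303, 0.0481 and 0.0399. Slc39a14 imports zinc, iron and manganese, and Slc5a3 imports myo-inositol with sodium. Slc5a11, another sodium-myo-inositol cotransporter, was at 5587, 2963 and 5893 in Ctrl-LE and at 559.7, 146 and 3361 in E-OEX-LE. A single E-OEX-LE library was within the Ctrl-LE range and the others were below it, and the difference did not pass (log2 fold change -2.82, limma adjusted p = 0.0848). Slc39a2, a zinc importer, and Slc6a15, a carrier of neutral amino acids, did not pass either, at -0.40 and 0.42 (limma adjusted p = 0.587 and 0.765).

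Slc34a2, Slc40a1, Slc7a11 and Slc1a1 passed in each of the 14 alternative analyses run, and Slc13a5 in 13 of them. The epithelium with the higher value differed between genotypes for Slc34a2, Slc40a1, Slc35g1 and Slc5a3. Their listing in both genotypes therefore fixes part of a shift in LE, in GE or in both. For these members, passing the test or the alternatives is no support. The other 6 calls were lost when 1 library was left out, and only 3 members were higher and 2 lower without replicate 2 or 3 of Ctrl-LE, or without replicate 1 or 2 of E-OEX-LE. With the deposited scale in place of the rescaled one, 7 members were higher and 3 lower. In bulk RNA, a change in the share of cells that express a gene and a change in RNA per cell cannot be told apart. The summed value of 7 glandular markers was 53.3 to 92.8 in Ctrl-LE and 207 to 1066 in E-OEX-LE, with 1 of the 7 (Wfdc3) higher and 2 at 0 in all E-OEX-LE libraries. The summed value of 8 stromal markers was 405, 7057 and 2573 in Ctrl-LE and 1627, 794 and 353 in E-OEX-LE. Of 9 luminal markers, Ltf and Krt13 were higher and Il17rb, Calb1 and Lpar3 lower. Their sums were 72358 to 89894 in Ctrl-LE and 34100 to 48955 in E-OEX-LE. Hoxa10 of the stromal markers and Myl9 of 5 smooth muscle markers were lower. None of 3 pan-epithelial, 6 endothelial and 2 leukocyte markers passed. The part of any of these in the member results was not tested.

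**Figure D1:**
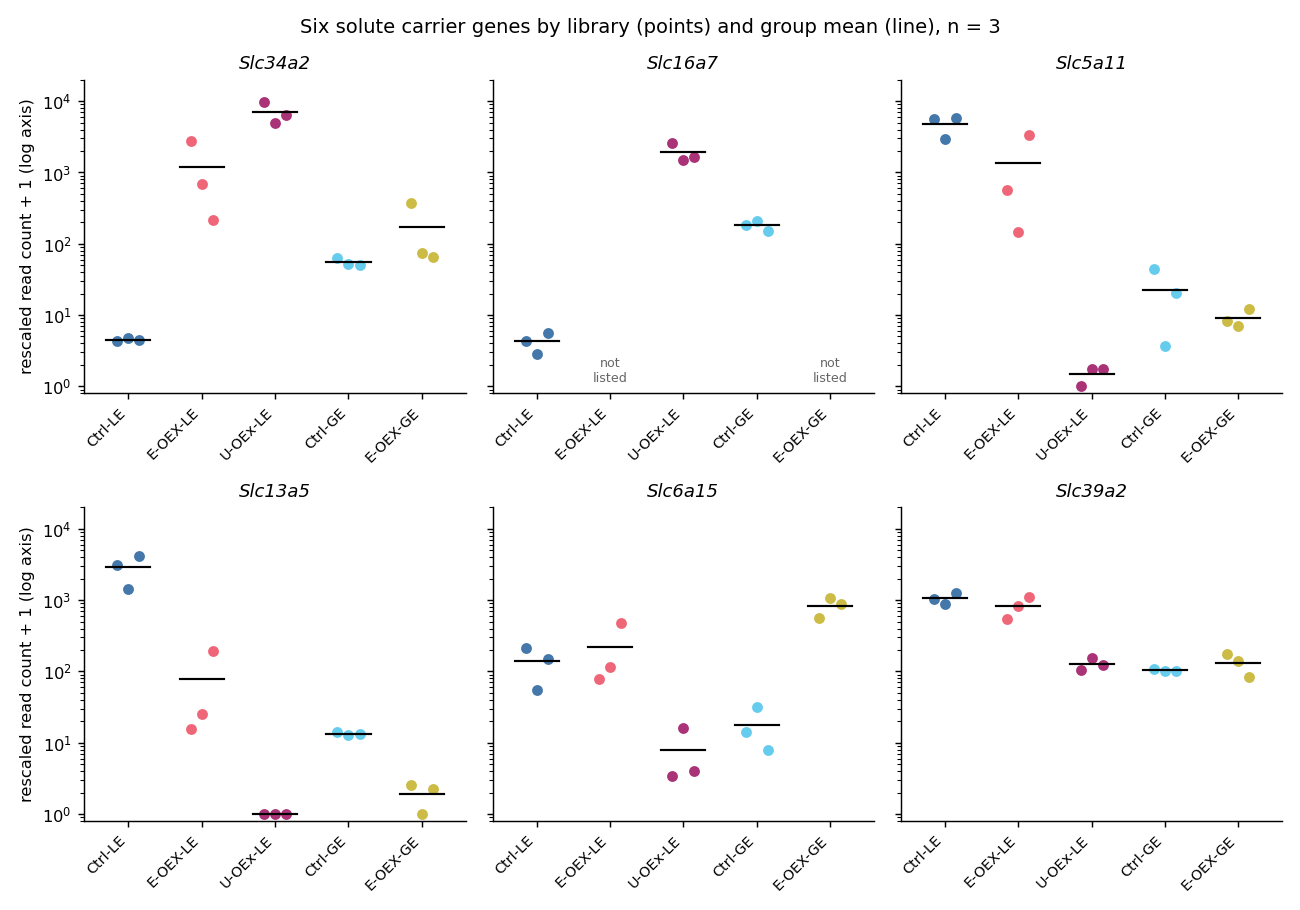
Rescaled read count plus 1 (log axis) of 6 solute carrier genes in each library (points), with the group mean (line), for up to 5 groups of 3 libraries. Slc34a2 was below 4 in every Ctrl-LE library and above 200 in every E-OEX-LE library, while Slc13a5 was at 0 in every U-OEx-LE library.

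In E-OEX-GE against Ctrl-GE, the changes included a rise of Slc6a15 and of the organic cation transporter Slc22a3, and falls of Slc13a5, Slc44a3 and Slc9a7. Of 69 members tested, 13 (18.8%) passed by limma with Benjamini-Hochberg adjustment, 7 higher and 6 lower, against 23.5% of the 2843 genes tested (9.71% higher and 13.8% lower). The member share was thus below that of all genes. Both sets are selected, since all genes tested were listed in both genotypes through a difference between GE and LE. Medians were -0.06 over the members and 0.05 over all genes tested, and the groups did not overlap for 26 members (37.7%) and 40.6% of all genes.

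Slc6a15 (ENSMUSG00000019894, chr10:103367783-103419377) carries branched-chain amino acids and proline with sodium. It was at 13.1, 30.8 and 7.02 in Ctrl-GE and at 553, 1065 and 886 in E-OEX-GE, with no overlap between the groups. The fit gave a log2 change of 5.72 (standard error 0.48, adjusted p = 8.5e-05 by limma). Slc22a3 (ENSMUSG00000023828, chr17:12418960-12507704), which moves organic cations such as monoamines, was at 5.02, 3.62 and 7.9 and 59.5, 28.8 and 29.9, with a log2 change of 2.60 (standard error 0.46, adjusted p = 0.00350 by limma).

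Among the other members that rose were exchangers that extrude calcium, Slc8a2 (1.60) and Slc24a3 (1.50). The amino acid carrier Slc6a14 rose by a log2 fold change of 1.47, the thiamine transporter Slc19a2 by 1.31 and Slc5a3 by 0.92. Their limma adjusted p-values lay between 0.00253 for Slc19a2 and 0.0320 for Slc24a3.

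Slc13a5 was low in glands already, at 13.1, 11.8 and 12.3 in Ctrl-GE, and was at 1.59, 0 and 1.22 in E-OEX-GE. The E-OEX-GE libraries were under the floor set by 3 reads per library, so the fall was at least 5.5-fold (limma adjusted p = 0.00452). Slc44a3, of the choline transporter-like family, was at 4116, 4211 and 4470.2 in Ctrl-GE and 947, 1754 and 1148 in E-OEX-GE, with a log2 change of -1.78 (standard error 0.26, adjusted p = 0.00122 by limma). The sodium-proton exchanger Slc9a7 of the Golgi fell by 1.77 on the log2 scale, the mitochondrial carrier of basic amino acids Slc25a29 by 1.49 and Slc39a14 by 1.36, with limma adjusted p-values of 0.00711, 0.00291 and 0.00536. Slc9b2, a sodium-proton antiporter at low counts, was the weakest call (-1.83, limma adjusted p = 0.0465). Slc25a29 lies 163 bp from Slc25a47, so reads near their ends may be split between them.

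All called members except Slc9b2, Slc5a3, Slc24a3 and Slc8a2 passed in each of the 13 alternatives, and 4 rather than 7 members were higher without Ctrl-GE replicate 1. The epithelium with the higher value differed between genotypes for Slc6a15 and Slc5a3. Their listing fixes part of a shift in GE, in LE or in both, so their passing is no support. On the deposited scale 15 members were higher and 5 lower, with the median of all genes at 0.50. DESeq2 on the recovered reads, which changes the test along with the scaling, gave 10 higher and 5 lower. Smooth muscle markers moved with genotype in these glands: 5 of 6 were higher in E-OEX-GE. Stromal markers summed to 35393 to 96507 in Ctrl-GE and 55961 to 67826 in E-OEX-GE, and 5 of 7 glandular markers were lower in E-OEX-GE (sums of 22743 to 32490 and 4661 to 6752). Their part in the member results was not tested.

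U-OEx-LE differed from Ctrl-LE in most of the members that could be tested. The U-OEx tables hold 326 genes of this name form, of which 176 are not members and were not tested. All genes tested here, members or not, were listed for wild-type mice through a difference between GE and LE, so both sets are selected. Of 132 members listed in both, 130 passed the filter and 84 (64.6%) passed by limma with Benjamini-Hochberg adjustment, 38 higher and 46 lower, against 56.3% of all 5913 genes tested (25.2% higher and 31.1% lower). Slc34a2 and the monocarboxylate transporter Slc16a7 rose most, and the myo-inositol cotransporter Slc5a11, the citrate importer Slc13a5 and the glucose transporter Slc2a12 fell most. Medians of the log2 fold change were 0.04 for members and -0.17 for all genes tested. The groups did not overlap for 91 members (70%), against 64.1% of all genes tested. This comparison and that of E-OEX-LE share the Ctrl-LE libraries.

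Slc34a2 was at 9874, 4888 and 6336 in U-OEx-LE against the Ctrl-LE values given above, with a log2 change of 10.55 (standard error 0.33, adjusted p = 2.33e-06 by limma). Slc16a7 (ENSMUSG00000020102, chr10:125219270-125389465), which carries lactate and pyruvate with protons, was at 3.33, 1.86 and 4.6 in Ctrl-LE and 2606, 1473 and 1638 in U-OEx-LE. Every U-OEx-LE library was far above every Ctrl-LE library, with a log2 change of 8.81 (standard error 0.39, adjusted p = 5.78e-06 by limma). For both genes the Ctrl-LE values stand for only a few reads per library, near the floor, so the sizes of these rises are uncertain.

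Slc5a11 (ENSMUSG00000030769, chr7:123214780-123273253), at 5587, 2963 and 5893 in Ctrl-LE, was at 0, 0.719 and 0.766 in U-OEx-LE, at least 2117-fold lower when the U-OEx-LE floor of 3 reads is used. Slc13a5 was at 0 in all 3 U-OEx-LE libraries and thus at least 1283-fold lower. Limma adjusted p-values were 3.64e-06 and 4.89e-06. Slc2a12 (ENSMUSG00000037490, chr10:22645011-22704285), a facilitative glucose transporter, was at 6106, 3977 and 6305 in Ctrl-LE and 1.58, 10.1 and 4.6 in U-OEx-LE, with a log2 change of -9.95 (standard error 0.52, adjusted p = 8.23e-06 by limma).

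Of 13 carriers of anions and carboxylates tested, 7 rose and 4 fell. Over all genes tested, 25.2% were higher and 31.1% lower. With Slc16a7 and Slc34a2, the dicarboxylate transporter Slc13a2 rose (5.17), as did Slc16a14 (4.40). Slc16a12, a creatine transporter, fell by 7.58 on the log2 scale, and Slc16a9 by 1.84.

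Classes here hold whole families, whatever each member carries. Their counts are to be read beside the shares over all genes tested, 25.2% higher and 31.1% lower. Whether any class differs from these shares was not tested. Of 16 members tested in the families grouped as sugar carriers (Slc2, Slc5 and Slc45), 5 rose and 6 fell. Slc5 also holds carriers of myo-inositol, iodide and monocarboxylates. Slc2a3, the high-affinity glucose transporter, was at 10833, 12685 and 22118 in Ctrl-LE and 235, 75.5 and 584 in U-OEx-LE, with a log2 change of -6.04 (standard error 0.67, adjusted p = 0.000157 by limma). The iodide transporter Slc5a5, of the sodium-glucose cotransporter family, fell by 5.22 on the log2 scale. In the other direction, the sodium-dependent sugar transporter Slc5a9 rose by 3.59, Slc45a3 by 4.44 and Slc2a6, of the glucose transporter family, by 2.80.

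Metal carriers fell more often than they rose, 5 against 2 of 10 tested. Within the zinc importers of the Slc39 family, 4 of 6 tested fell and none rose by limma, edgeR or DESeq2, with 0 higher also at an unadjusted p under 0.05. Those that fell were Slc39a14 (-4.27), Slc39a2 (-3.06), Slc39a6 (-2.57) and Slc39a4 (-2.16). The lower share over all genes was 31.1%. Slc39a4, the zinc importer that is the most abundant member per kilobase of exon in Ctrl-GE and U-OEx-LE, was at 7431, 4588 and 4918 in U-OEx-LE against 27013, 19125 and 29019.9 in Ctrl-LE. The metal carriers that rose were Slc40a1 (5.02) and Slc11a2 (2.47), a proton-coupled importer of iron.

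Of 22 amino acid carriers, 7 were higher and 6 lower, where 25.2% of all genes were higher and 31.1% lower. Slc7a11 (3.24), the methionine and branched-chain carrier Slc43a2 (3.31), the glutamine carrier Slc38a1 (2.96) and Slc7a6 (2.88) rose. Slc6a15 (-4.34), the taurine transporter Slc6a6 (-2.81) and the carriers Slc1a4 (-2.83) and Slc1a1 (-2.68) fell. The noradrenaline transporter Slc6a2 was at 0 in all U-OEx-LE libraries and at least 10.8-fold lower, or 5.04-fold without Ctrl-LE replicate 2. Its Ctrl-LE counts were 2.22, 51 and 20.7. They ranked like the stromal marker sums of the same libraries (405, 7057 and 2573), and the part of stroma in them was not tested.

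Ion exchangers and cotransporters rose in 8 and fell in 5 of 21 tested (all genes: 25.2% higher and 31.1% lower). The sodium-bicarbonate cotransporter Slc4a4 rose by 3.66 on the log2 scale, the chloride transporter Slc26a9 by 3.98 and Slc9a7 by 3.42, and Slc26a10 was at least 24-fold higher. The sodium-calcium-potassium exchanger Slc24a4 (at least 372-fold), the bicarbonate carrier Slc4a8 (-3.18), Slc9a2 (-4.01) and the sodium-potassium-chloride cotransporter Slc12a2 (-1.58) fell. Of 10 mitochondrial carriers, 5 fell and 1 rose. Slc25a48, the most abundant member per kilobase in Ctrl-LE, was at 40280.5, 23282 and 32973 in Ctrl-LE and 130.3, 248 and 119 in U-OEx-LE, with a log2 change of -7.64 (standard error 0.34, adjusted p = 5.78e-06 by limma), whereas Slc25a35 rose by 3.36.

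Among vitamin and nucleoside carriers, 4 of 12 rose and 3 fell: Slc23a4 (4.20) rose, and the ascorbate transporter Slc23a1 (-5.12) and Slc46a2 fell. Slc46a2 was at 57.8, 576 and 123 in Ctrl-LE and at 0, 2.16 and 0 in U-OEx-LE, at least 111-fold lower, or 39.8-fold without Ctrl-LE replicate 2, its highest library. Organic ion and lipid carriers fell in 7 and rose in 2 of 17, with Slc22a4 (-4.08) and Slc22a5 (-1.96), which carry ergothioneine and carnitine, among those lower. The pseudogene Slc22a13b-ps fell by 1.68, and its locus overlaps Slc22a14, so their reads may not be separable. Members of the Slc35 family, grouped as nucleotide sugar carriers, fell in 4 and rose in 1 of 7. For all these classes, the shares over all genes tested were 25.2% higher and 31.1% lower.

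**Figure D2:**
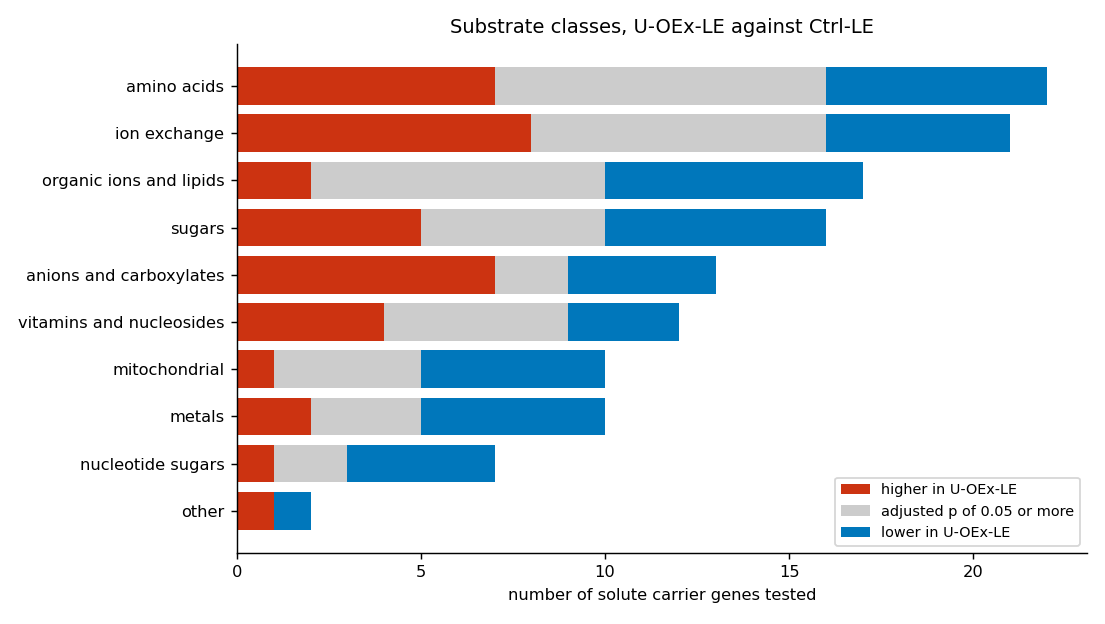
Number of solute carrier genes tested in U-OEx-LE against Ctrl-LE, by substrate class. Each class holds whole Slc families and is divided into genes higher, lower and not past an adjusted p of 0.05. Mitochondrial carriers fell in 5 and rose in 1 of 10, while anion and carboxylate carriers rose in 7 and fell in 4 of 13. Over all genes tested, 25.2% were higher and 31.1% lower.

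Of the 84 calls, 72 passed in every alternative and 73 without each library in turn. In the fit over 3 LE groups, which tests 63 members, 17 were higher and 18 lower. Among cell type markers, 4 of 8 glandular markers were higher and 1 lower in U-OEx-LE, with 7 of them summing to 841 to 1238 against 53.3 to 92.8 in Ctrl-LE. Of 6 leukocyte markers tested, 4 were higher, and of 5 pan-epithelial markers 4 were lower. Of 9 luminal markers 3 were higher and 4 lower, of 5 smooth muscle markers 3 were lower, of 8 stromal markers 1 (Hoxa10) was lower, and of 7 endothelial markers 1 (Pecam1) was higher. Their part in the member results was not tested.

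**Figure D3:**
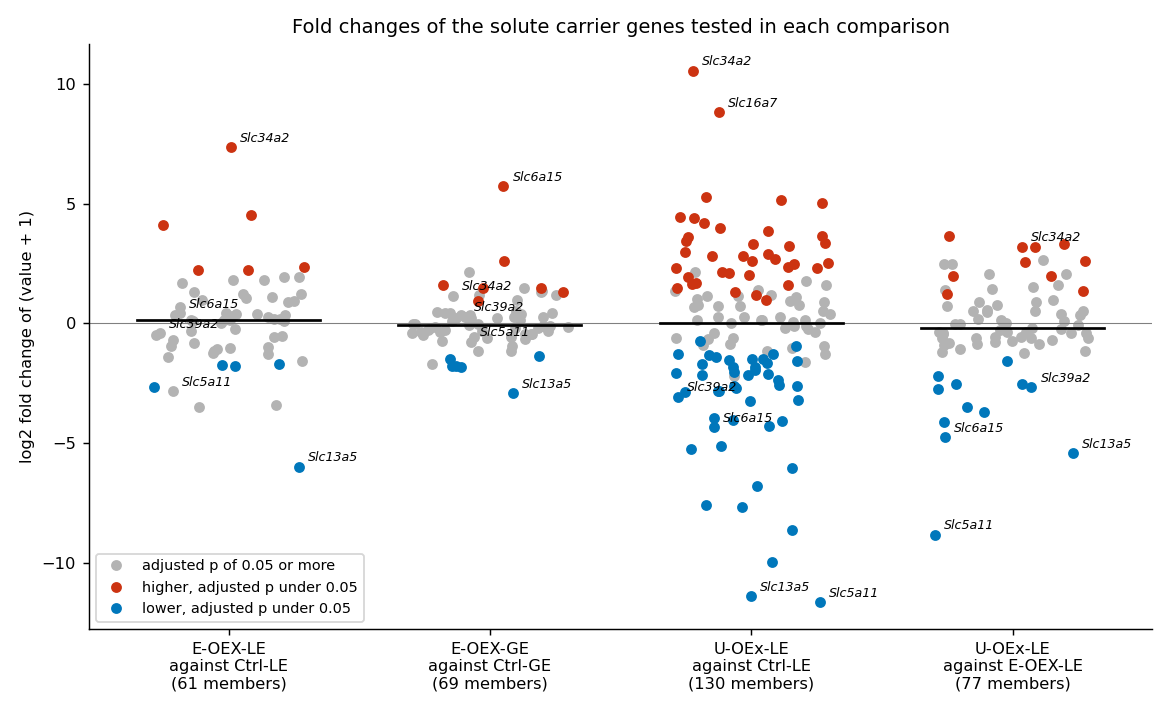
Log2 fold change of (value + 1) for every solute carrier gene tested in each of the 4 comparisons (1 point per gene), with genes past an adjusted p of 0.05 marked by direction, up to 6 marker genes named and the median drawn as a line. Slc34a2 is the highest point in E-OEX-LE (7.35) and in U-OEx-LE (10.55) against Ctrl-LE.

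The LE groups that overexpress Notch1 also differed from each other. Between U-OEx-LE and E-OEX-LE, 77 of 85 members listed in both were tested and 22 (28.6%) passed by limma with Benjamini-Hochberg adjustment, 10 higher and 12 lower, against 15.2% of 4214 genes (7.1% higher and 8.09% lower). Medians were -0.18 over members and 0.08 over all genes tested, and groups did not overlap for 38 members (49.4%) and 38.3% of all genes. Slc5a11 was at least 596-fold and Slc13a5 at least 33.8-fold lower in U-OEx-LE (limma adjusted p = 0.00404 and 0.00974). Without E-OEX-LE replicate 3, the highest library for each, these bounds were 155-fold and 8.62-fold. Slc39a2 was at 547, 815 and 1105 in E-OEX-LE and at 103, 154 and 120.3 in U-OEx-LE, and Slc39a14 at 2516, 1812 and 5028 and 483, 473 and 505. Neither pair of groups overlapped, with log2 fold changes of -2.66 and -2.54 (limma adjusted p = 0.00589 and 0.00791).

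Slc6a15 (-4.76), Slc16a12 (-4.10), the urea transporter Slc14a1 (-3.68), Slc4a8 (-3.49) and Slc27a3 (-2.73) were also lower in U-OEx-LE. Slc5a9 was higher, at 416, 169.5 and 215 in E-OEX-LE and 2886, 1957 and 2102 in U-OEx-LE, with a log2 change of 3.20 (standard error 0.40, adjusted p = 0.00463 by limma). Slc9a7 (3.33), Slc34a2 (3.19), the nucleoside transporter Slc28a2 (2.60) and Slc7a2 (2.55), a carrier of basic amino acids, were higher as well. Slc9b2 was called higher with both groups near the floor, and no fold is given. The calls that passed in every alternative were those of Slc5a11, Slc13a5, Slc4a8, Slc27a3, Slc39a2, Slc39a14 and Slc5a9. Without U-OEx-LE replicate 1 or 3, only 1 member was higher and 6 lower; 4 were higher without U-OEx-LE replicate 2 and 5 without E-OEX-LE replicate 2 or 3.

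Slc13a5 and Slc39a14 passed with a lower value in all 3 comparisons with wild-type libraries. Slc39a14 had log2 fold changes of -1.73, -1.36 and -4.27, and its E-OEX-LE call held in only 5 of 14 alternatives. Slc5a3 passed in all 3 with mixed direction, at -1.68 in LE and 0.92 in GE of E-OEX mice and -2.06 in U-OEx-LE. Its calls held in 7 of 14 alternatives in E-OEX-LE and in 9 of 13 in E-OEX-GE. The E-OEX-LE and U-OEx-LE comparisons share the Ctrl-LE libraries.

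Genes that partner or power these carriers were counted from a list of 39. Against Ctrl-LE, none of 9 tested passed in E-OEX-LE by limma, edgeR or DESeq2, and 1 was higher and 2 lower at an unadjusted limma p under 0.05. Against Ctrl-GE, Fxyd4 (2.21), a regulator of the Na,K-ATPase, and Pdzk1ip1 (1.17) rose and the proton pump subunit Atp12a (-1.95) fell, of 11 tested. In U-OEx-LE against Ctrl-LE, 4 of 24 rose and 10 fell, with the kinase Stk39 (4.12) and Fxyd5 (3.54) higher and Fxyd4 (-4.12) and the Na,K-ATPase subunit Atp1b1 (-3.61) lower. Of the organic anion polypeptide transporters, the prostaglandin transporter Slco2a1 was higher in E-OEX-LE (4.97) and U-OEx-LE (4.25) and lower in E-OEX-GE (-1.16), of 3, 5 and 3 tested, and Slco4a1 was higher in U-OEx-LE (7.97). No ABC transporter passed by limma, edgeR or DESeq2 among 8 tested in E-OEX-LE or 9 tested in E-OEX-GE. In each of these groups, 1 was lower at an unadjusted limma p under 0.05. Of 13 tested in U-OEx-LE against Ctrl-LE, 2 rose and 1 fell. For scale, limma called 10.7% of all genes in the luminal comparison of E-OEX mice and 23.5% in the glandular one. Against Ctrl-LE, 25.2% of all genes tested were higher and 31.1% lower in U-OEx mice. Few genes were tested on each list, and whether the lists differ from these shares was not tested.

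In wild-type mice, 78 of the 135 members listed were higher in GE (57.8%, against 57.0% of all 6414 genes listed) and 57 in LE. Deposited values are used here. The members highest in LE relative to GE were Slc5a11 (log2 difference, GE minus LE, of -8.27), Slc13a5 (-7.64), the peptide transporter Slc15a1 (-7.48), the sodium-proton exchanger Slc9a2, Slc24a4 (-6.45) and the sodium-glucose cotransporter Slc5a1 (-5.23). Slc9a2 was at the floor in GE and at least 74.2-fold higher in LE. Slc5a11 was at 5210.4, 3271 and 5724 in Ctrl-LE and 41.8, 2.84 and 19 in Ctrl-GE.

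Highest in GE were the sodium-chloride cotransporter Slc12a3 (7.09), Slc7a2 (6.06), the amino acid carrier Slc38a4 (5.76), Slc16a7 (5.46) and Slc26a7. In LE, Slc26a7 was at the floor, which puts it at least 14.5-fold higher in GE. Slc12a3 was at 4899, 2535 and 3141 in Ctrl-GE and 2.07, 203 and 23.5 in Ctrl-LE, 1 library of which stood far above the others. That library, Ctrl-LE replicate 2, also had the highest stromal marker sum in Ctrl-LE. Per kilobase of exon, the rescaled values in Ctrl-LE were highest for Slc25a48 (9537 ± 2527, SD, n = 3) and Slc39a4 (8066 ± 1684), and those in Ctrl-GE for Slc39a4 (21412 ± 2309.6) and the glutamine carrier Slc1a5 (5689 ± 325). By family, all 6 Slc38 amino acid carriers and all 4 Slc10 bile acid carrier family members listed were higher in GE, while all 3 Slc46 members and 5 of 6 Slc5 members were higher in LE. Stromal markers summed to 35393 to 96507 in Ctrl-GE against 405 to 7057 in Ctrl-LE, and their part in the GE values was not tested.

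In E-OEX mice, 50 of 87 members were higher in GE (57.5%, against 63.9% of all 4903 genes listed). Slc5a11 (-5.97), Slc5a1 (-5.81), Slc15a1 (-5.08), Slc26a9 (-3.93) and Slc2a6 (-3.93) led in LE, with Slc13a5 at least 27.7-fold higher there, or 7.07-fold without E-OEX-LE replicate 3. In GE, Slc26a7 was at least 58.1-fold, Slc6a2 at least 83.3-fold and Slc38a4 at least 53.6-fold higher, the last 30.5-fold without E-OEX-GE replicate 3. Slc7a2 (5.96), Slc24a3 (5.66) and Slc10a6 (at least 20.1-fold) were also higher in GE.

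**Figure D4:**
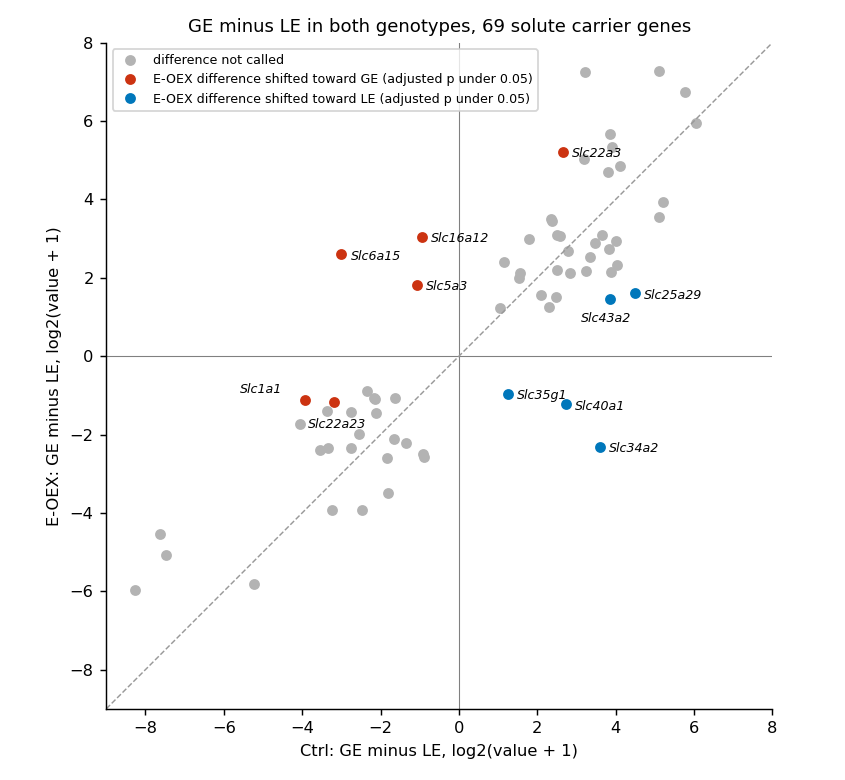
GE minus LE difference of log2(value + 1) in Ctrl (horizontal axis) and in E-OEX (vertical axis) for the 69 solute carrier genes listed in both. Genes lie on the same side of 0 in both genotypes, apart from 6 that include Slc34a2 (3.61 in Ctrl, -2.31 in E-OEX) and Slc6a15 (-3.0 in Ctrl, 2.60 in E-OEX).

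Whether the E-OEX effect differed between GE and LE was tested by an interaction term on deposited values. Of 69 members, 11 (15.9%) passed by limma with Benjamini-Hochberg adjustment, 6 with a higher and 5 with a lower effect in GE, against 10.7% of 2933 genes (5.83% higher and 4.91% lower). Listing requires a difference between the epithelia in each genotype. For genes that change direction, the size of the interaction is therefore partly fixed by the listing. Every member that changed direction is among the 11, so these counts and shares are a description only.

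The 6 members that were higher in one epithelium in wild-type mice and in the other in E-OEX mice were Slc34a2, Slc40a1, Slc35g1, Slc6a15, Slc5a3 and Slc16a12. Their interaction values are given as a description, since genes listed in both genotypes and ordered differently must differ in this way. The deposited values of Slc34a2 were 3.11, 4.1 and 3.35 in Ctrl-LE, 59.4, 54 and 48.5 in Ctrl-GE, 3382, 713 and 235 in E-OEX-LE and 469.7, 98.9 and 99.3 in E-OEX-GE. Its interaction was -5.91 (SE 1.16). E-OEX-GE replicate 1, the highest E-OEX-GE library for Slc34a2, also had the highest luminal marker sum of that group (8119, against 3711 and 2663 in the others), and its part in the value was not tested. Slc6a15 was at 201, 60.4 and 146 in Ctrl-LE, 12.7, 32.2 and 6.92 in Ctrl-GE, 95.8, 119.9 and 529 in E-OEX-LE and 698, 1446 and 1361 in E-OEX-GE, with an interaction of 5.60 (SE 1.0). Slc1a1, higher in LE in both genotypes, had an interaction of 2.80 (SE 0.56, limma adjusted p = 0.00707) and passed in each of the 18 alternatives. With values rescaled within each epithelium, 4 members had a higher and 5 a lower effect in GE. The count of lower effects was 3 without Ctrl-LE replicate 3, Ctrl-GE replicate 1 or 2 or E-OEX-GE replicate 3, and 2 without Ctrl-GE replicate 3.

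**Figure D5:**
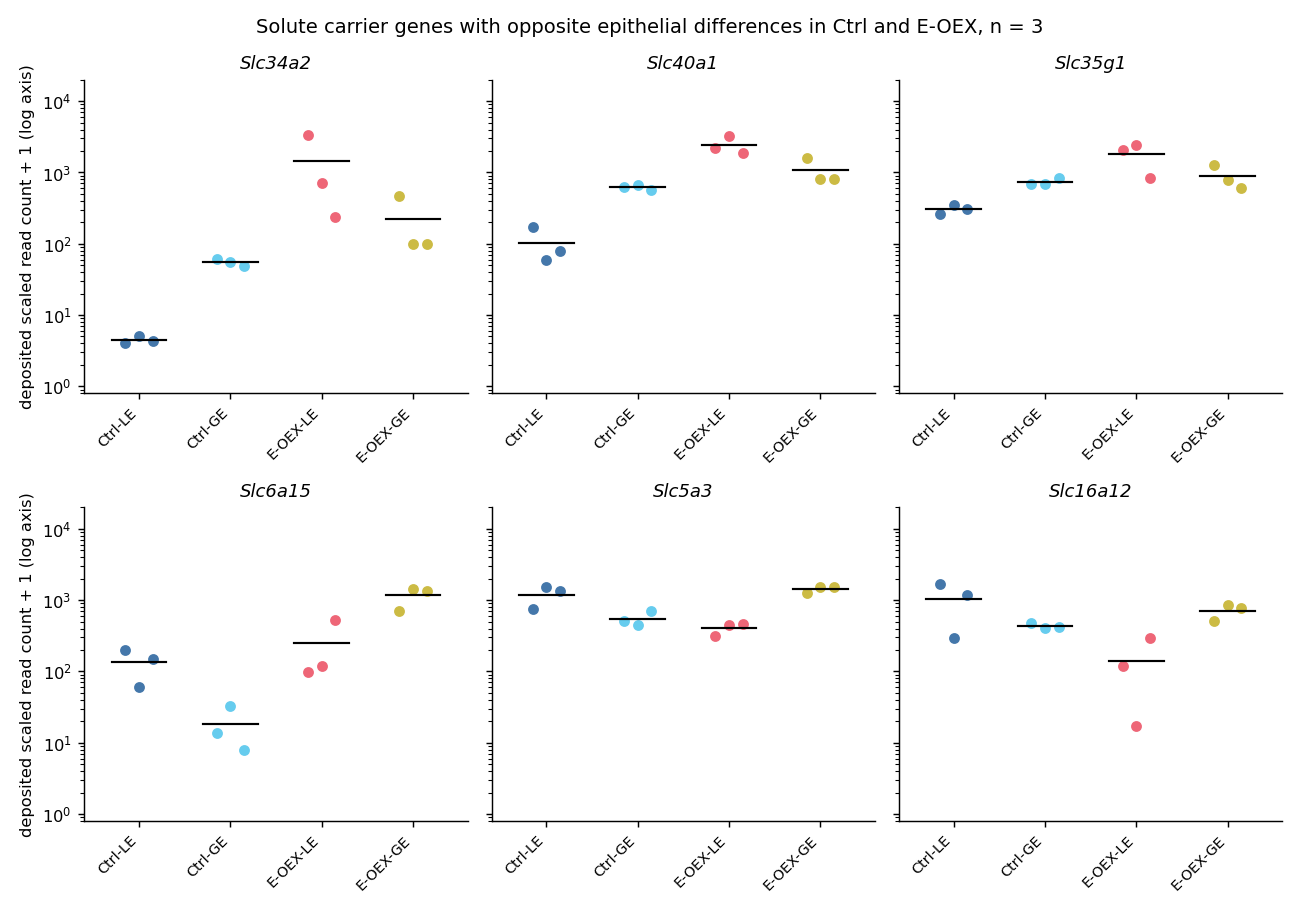
Deposited scaled read count plus 1 (log axis) of the 6 solute carrier genes whose GE and LE levels were ordered differently in Ctrl and E-OEX, in each of 3 libraries per group (points). Slc34a2 and Slc6a15 exchange the order of LE and GE between Ctrl and E-OEX.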

How the data were processed

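RNA-seq of mouse uterine epithelium on day 4 gave 15 libraries, 3 in each of 5 groups, grouped by their titles. The authors deposited scaled signal values per gene. In every library all values were whole multiples of 1 step, within 0.01 of a read, so reads were recovered. The submitters' processing notes name GRCm 38 and mm 10. The aligner, counter and scaling are not given in the sources used here, nor is whether counting used strand. Ctrl and E-OEX tables list only genes that differ between GE and LE.

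Values were rescaled by TMM (edgeR 4.0.16) over the libraries of each epithelium. Genotypes were compared with limma 3.58.1 in R 4.3.3 on log2(value + 1), with a mean value of at least 1, Benjamini-Hochberg adjustment over all genes of the fit and an adjusted p threshold of 0.05. The code was tested on simulated data. GE minus LE and the interaction used deposited values. A group at or under 3 reads per library gives a bound on the fold, for counting error only. Alternatives were a pseudocount of 0.1, no filter, edgeR and DESeq2 1.42.0 on recovered reads, other scalings, a replicate block and leaving out each library.

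Named genes were the 8 largest rises and 8 largest falls past the threshold without overlap in each comparison, the 6 largest GE minus LE differences each way, the 2 most changed members of families of 4 or more, 6 markers, members past the threshold in all 3 comparisons with Ctrl, and at most 4 genes per pathway list. Other members named within a substrate class were chosen after their values were seen. Members and lists were chosen with earlier results of these data known. Loci and exon lengths are from GENCODE M21, and promoter windows from RefSeq, for 111 members. Some members are not reported here by name.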

Additional observations from a re-analysis of the deposited data

Results flagged for a closer look

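For 11 members the E-OEX effect differed between GE and LE by the interaction term (limma with Benjamini-Hochberg adjustment, adjusted p under 0.05). The log2 difference, GE effect minus LE effect, was -5.91 for Slc34a2, -3.98 for Slc40a1, -2.88 for Slc25a29, -2.39 for Slc43a2 and -2.22 for Slc35g1. It was 2.02 for Slc22a23, 2.56 for Slc22a3, 2.80 for Slc1a1, 2.89 for Slc5a3, 3.99 for Slc16a12 and 5.60 for Slc6a15. Slc34a2, Slc40a1, Slc35g1, Slc16a12, Slc5a3 and Slc6a15 were ordered differently in GE and LE of the 2 genotypes, which with their listing in both fixes part of these values, so that their passing is no support. Slc34a2, Slc40a1, Slc1a1, Slc5a3 and Slc6a15 passed in each of 18 alternatives, and Slc22a3 and Slc16a12 in 6 of them. Slc22a3 was at or under the floor of 3 reads in every LE library of both genotypes. No effect in LE could be measured for it, and its value describes the change in GE. The alternatives use the same listed genes, so for the members ordered differently passing them is no support either.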

How the results depend on the processing

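Of the named members' values under alternatives other than leaving out a library, 629 kept direction and side of the threshold, 36 no longer passed and 1 reversed: the interaction of Slc22a3 was -0.15 with edgeR (adjusted p = 0.780). In LE, Slc22a3 was at or under the floor of 3 reads per library in both genotypes, so no effect in LE could be measured for it. With a library left out, 500 kept both and 112 no longer passed. The cause of the other changes was not tested. In E-OEX-LE against Ctrl-LE the count of lower members was 1 with no filter, 3 with edgeR, 8 with DESeq2, 3 on the deposited scale and 10 in 1 fit over the LE groups. Against Ctrl-GE, 15 members were higher on the deposited scale. In U-OEx-LE against Ctrl-LE, 1 fit over the LE groups, with 63 members tested, gave 17 higher and 18 lower. The deposited scale and TMM over the 2 groups alone each gave 42 higher and 42 lower in that comparison. Leaving out each library gave 3 to 7 higher and 2 to 7 lower in E-OEX-LE, 4 to 7 and 5 to 8 in glands, 33 to 39 and 41 to 48 for U-OEx-LE against Ctrl-LE, 1 to 13 and 6 to 14 in U-OEx-LE against E-OEX-LE, and 4 to 9 and 2 to 6 for the interaction. The median of all genes was 0.08, 0.50, 0.10 and 0.19 on the deposited scale, against -0.08, 0.05, -0.17 and 0.08. Deviations from the group mean correlated between -0.285 and 0.190 in same-numbered libraries. Whether equal numbers stand for a shared animal is not given, and these correlations cannot exclude it. With the replicate block, 6 members were higher and 7 lower in E-OEX-LE, 10 and 7 in glands, 37 and 45 in U-OEx-LE against Ctrl-LE, 10 and 12 in U-OEx-LE against E-OEX-LE, and 6 and 5 for the interaction.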
